A study of Mus musculus with 6 samples.

Results

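The PDGF genes of the mouse, Pdgfa, Pdgfb, Pdgfc, Pdgfd, Pdgfra and Pdgfrb, were followed in YFP+ luminal mammary epithelial cells (MECs) of Runx1-WT and Runx1-null mice. They are 6 of 18194 genes on the array and were read by 14 of its 45101 probe sets, every probe set that the array's annotation gave to exactly 1 of them. The family was chosen on the values of Pdgfd, because its brightest probe set read lower in every Runx1-null array, so genotype differences of the 6 genes are given as descriptions with no test.

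Luminal MECs (Lin−CD24+CD29lo) were sorted by flow cytometry from thoracic and inguinal mammary glands of adult virgin females on a mixed B6/129/FVB background. The 3 Runx1-null mice were MMTV-Cre;Runx1L/L;R26Y, with exon 4 of Runx1 flanked by loxP sites, and the 3 Runx1-WT mice were MMTV-Cre;Runx1+/+;R26Y. Both groups thus carried the Cre transgene and R26Y, a reporter that turns on YFP after Cre acts, and both were gated on YFP. The MMTV promoter drives Cre mostly in luminal cells and also in a portion of basal cells. RNA of each mouse was amplified and hybridized to 1 Affymetrix Mouse Genome 430 2.0 array, and the values are linear intensities normalized by the authors, so that spreads are between mice. An intensity depends on the probe sequence, and levels are therefore compared between mice at a single probe set, never between probe sets.

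PDGFs are secreted dimeric growth factors that act through a pair of receptor tyrosine kinases. Pdgfa and Pdgfb are trimmed by furin-like enzymes before they leave the cell, whereas Pdgfc and Pdgfd are secreted in a latent form with a CUB domain that proteases must remove outside the cell. PDGF receptor alpha binds the A, B and C chains, and receptor beta binds the B and D chains. In many epithelial organs the ligands come from epithelium and endothelium, while fibroblasts carry receptor alpha and pericytes and vascular smooth muscle carry receptor beta.

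Across the whole array, limma called 0 of 12152 tested genes (0%) at an adjusted p under 0.05, with 234 at an unadjusted p under 0.05. With the test that the methods name, 335 genes had an unadjusted p under 0.05 and 0 an adjusted one. Luminal markers were bright in every mouse, with Krt8, a keratin of simple epithelia, at 10459 to 11487 in the Runx1-WT mice and 11369 to 12535 in the Runx1-null mice. All 6 probe sets of Runx1 itself overlapped between the genotypes, and at the brightest the log2 difference was 0.09, with a standard error (SE) of 0.45. Where those probes lie relative to exon 4 was not analysed here, so they check neither the deletion nor the labels. By qRT-PCR, the paper reports that Runx1 expression was lost in YFP+ MECs sorted from Runx1L/L females. In their YFP+ mature luminal cells it found only a slight reduction, and it proposes that many of these cells escaped excision of at least 1 allele. The signal at the 3′ end of Gapdh exceeded that at its 5′ end, a gap that grows as RNA degrades, by 0.46 to 0.47 (log2) in the Runx1-WT mice and by 0.47 to 0.61 in the Runx1-null mice, whose values were all the larger. For beta-actin the genotypes overlapped, with gaps of 0.50 to 0.52 in the Runx1-WT mice and 0.52, 0.44 and 0.74 in Runx1-null mice 1, 2 and 3. The part of RNA quality in the values below was not tested.

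Pdgfd encodes the D chain, a ligand of receptor beta. At its brightest probe set, 1456532_at, its intensity was 571, 416 and 516 in Runx1-WT mice 1, 2 and 3 and 268, 256 and 228 in the Runx1-null mice 1, 2 and 3. Every Runx1-null mouse lay below every Runx1-WT mouse, and the Runx1-null mice were close together. The means were 501 ± 78.4 (SD, n = 3) in the Runx1-WT mice and 251 ± 20.2 (SD, n = 3) in the Runx1-null mice, a ratio of 0.500 and a log2 difference of -0.99 (SE 0.15). This probe set is the one that the family was chosen by. Of all tested genes, 422 (3.47%) were lower in every Runx1-null mouse and 253 (2.08%) were higher in every one, and 0.667% had a log2 difference at or below that of Pdgfd. In bulk RNA of sorted cells, fewer cells of a type and less RNA per cell cannot be told apart. By flow cytometry of YFP+ luminal cells, the paper reports a smaller mature luminal share and a larger progenitor share in Runx1-null females. The part of that shift in the Pdgfd values was not tested.

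**Figure D1:**
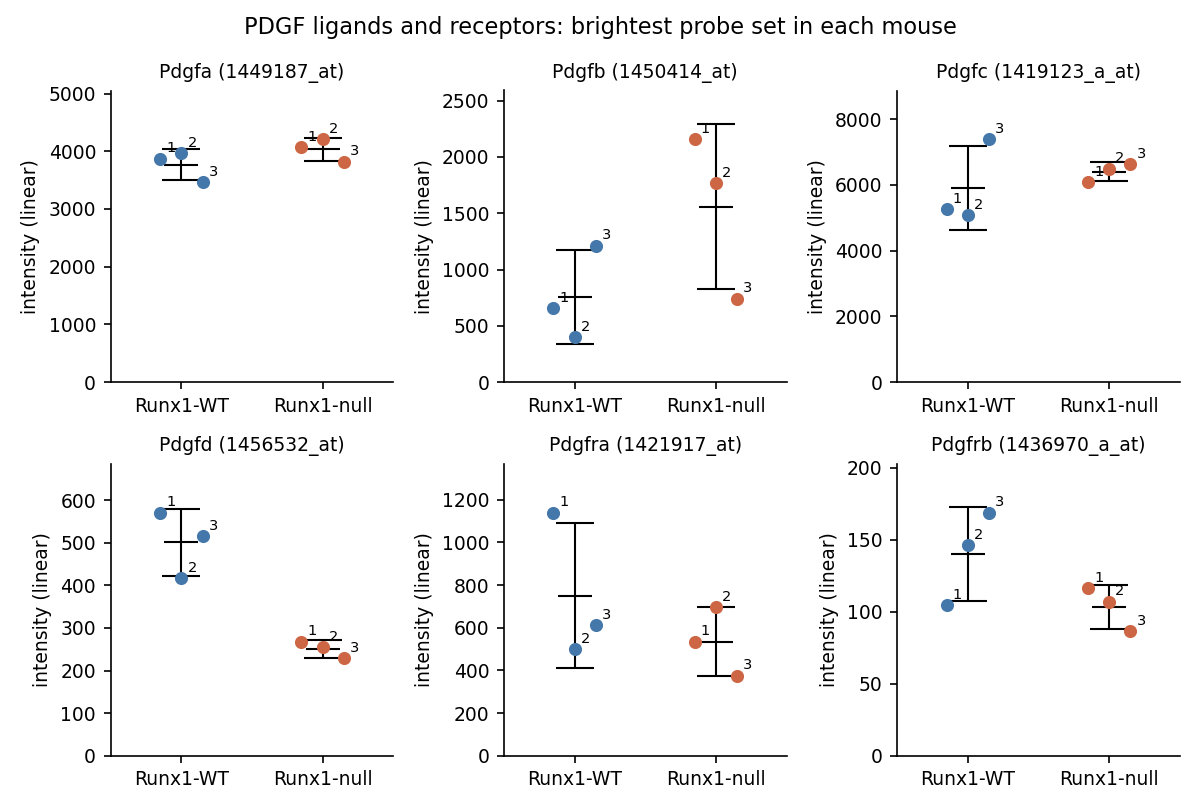
Linear intensity (vertical axis, starting at 0) of the brightest probe set of each PDGF gene in each genotype. Points are single mice, numbered within their genotype, and the bars show mean and SD. The genotypes are apart for Pdgfd, at 416 to 571 against 228 to 268, and overlap for the other 5 genes.

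The start of Pdgfd is shown because its values are those the account turns on. The stretch runs 5′ to 3′ over the 127 bases ahead of the earliest annotated transcript, chr9:6168236-6168362 on the plus strand of GRCm38.p6, from RefSeq. Capitals mark TATAAA and the letters ACCAC, which are the complement of GTGGT, the last 5 letters of the RUNX motif TGTGGT. The full motif is not in the window.

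Pdgfd: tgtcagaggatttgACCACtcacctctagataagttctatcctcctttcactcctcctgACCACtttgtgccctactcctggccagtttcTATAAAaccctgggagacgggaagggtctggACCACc

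The RUNX motifs TGTGGT and TGCGGT, searched on both strands, were found in 22.4% of 32851 RefSeq promoter windows of 300 bases, 250 before and 50 after a start. They were found in 0 of the 5 windows listed for Pdgfa (with 2 starts), Pdgfc, Pdgfd and Pdgfra. Pdgfb and Pdgfrb have no window among the 5. The shorter GTGGT, which lies within TGTGGT but not within TGCGGT, was searched, on both strands, only after the Pdgfd sequence had been read. It occurred 3 times in the Pdgfd window, a number that 1.98% of all windows reached, and 0 times in the other member windows, while 41.1% of all windows held at least 1. Because the search followed that reading, the share of 1.98% does not measure how unusual the Pdgfd window is. TATAAA, the usual form of the TATA box and searched on both strands, was in 13.6% of all windows and, among the 5, in the Pdgfd window only. It starts 37 bases ahead of the earliest transcript, whereas the Pdgfd window, chr9:6168236-6168535, was set on a start further downstream. GGGCGG, the core of the GC box bound by Sp1-like factors, was in 35.7% of all windows on either strand and in both Pdgfa windows only. CCAAT, on either strand, was in 37.4% of all windows and in 0 of the 5. These matches describe letters in the reference sequence, and binding was not measured here.

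The other Pdgfd probe sets were dim. Probe set 1446691_at read 49.6, 29.3 and 28.2 in the Runx1-WT mice and 36, 44.7 and 44.2 in the Runx1-null mice. The groups overlapped, and the difference ran the other way, at 0.27 on the log2 scale (SE 0.28). Probe set 1426319_at read 28.4, 18.6 and 40.1 in the Runx1-WT mice and 21.0, 13.6 and 14.7 in the Runx1-null mice. Here 3 of 6 arrays were below 19.335, the floor to which low values were set before taking logs, the groups overlapped, and the difference was -0.50 (SE 0.31). Both lay below the filter on dim probe sets (a mean intensity of 73.475), so that 1 of 3 Pdgfd probe sets carries the low Runx1-null values. With the log2 values of all 3 averaged, the Pdgfd difference was -0.41.

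**Figure D2:**
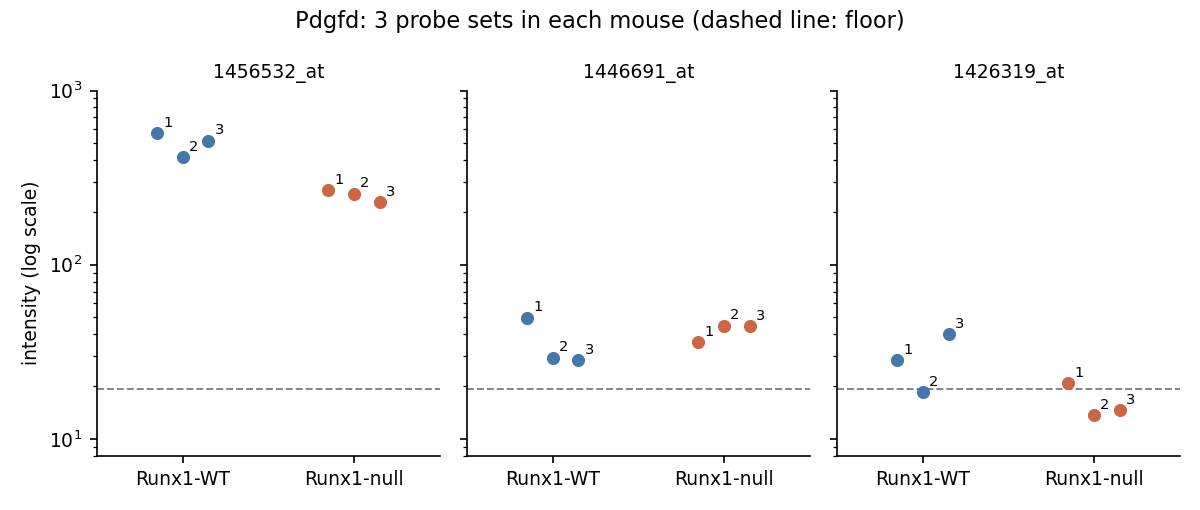
Intensity on a log scale at the 3 probe sets of Pdgfd, with 1 point per mouse, numbered within its genotype, and a dashed line at the floor of 19.335. The brightest probe set separates the genotypes, whereas the dim ones overlap and 1 of them has 3 arrays below the line.

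Pdgfb, the B chain, which binds both receptors and is known for recruiting pericytes to new vessels, varied most between mice among the 6 genes. Probe set 1450414_at read 657, 399 and 1213 in Runx1-WT mice 1, 2 and 3 and 2158, 1770 and 742 in the Runx1-null mice 1, 2 and 3. Runx1-null mice 1 and 2 lay above all Runx1-WT mice, while Runx1-null mouse 3 lay among them. The means were 756 ± 416 (SD, n = 3) and 1557 ± 732 (SD, n = 3), with a log2 difference of 1.05 (SE 0.66), and 0.477% of tested genes had one at or above it. The dimmer probe set 1450413_at put the 6 mice in the same order, at 249, 173 and 434 in the Runx1-WT mice and 664, 617 and 277 in the Runx1-null mice. Its difference was 0.87 (SE 0.56).

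The order of Pdgfb over the mice changed with the range of animal numbers. Runx1-WT mice 1 and 2 and Runx1-null mice 1 and 2 have numbers from a lower range, and both mice numbered 3 from an upper one. Within the lower range the Pdgfb difference was 1.93, and between the 2 mice of the upper range it was -0.71. For Pdgfd the same values were -0.90 and -1.18. What the ranges stand for is not given in the labels, and their part in the values was not tested.

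Pdgfa, the A chain, a ligand of receptor alpha, read 3873, 3963 and 3465 in the Runx1-WT mice and 4074, 4211 and 3820 in the Runx1-null mice at probe set 1449187_at. The groups overlapped through Runx1-null mouse 3, and the difference was 0.10 (SE 0.07). At its other probe set, 1418711_at, it was 0.14 (SE 0.16).

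Pdgfc, the C chain, which also acts through receptor alpha, read 5252, 5075 and 7390 in the Runx1-WT mice and 6081, 6495 and 6622 in the Runx1-null mice at 1419123_a_at. Runx1-WT mouse 3 was the highest of all and the other Runx1-WT mice the lowest, so that the spread was wider in the Runx1-WT mice, at 5906 ± 1288 (SD, n = 3), than in the Runx1-null mice, at 6399 ± 283 (SD, n = 3). The difference was 0.14 (SE 0.18), and 0.13 (SE 0.22) at 1449351_s_at. Over all settings the Pdgfa difference stayed between 0.04 and 0.16 and that of Pdgfc between -0.16 and 0.31.

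Among the receptors, Pdgfra, the alpha receptor and a familiar marker of fibroblasts, read 1140, 500 and 613 in the Runx1-WT mice and 535, 696 and 376 in the Runx1-null mice at 1421917_at. Runx1-WT mouse 1 stood above the other 5 mice, whose genotypes were interleaved. The difference was -0.44 (SE 0.44) with all mice and -0.09 without Runx1-WT mouse 1. Both other Pdgfra probe sets were below the filter, 1421916_at with 5 of 6 arrays below the floor, and their differences were -0.14 (SE 0.21) at 1438946_at and -0.32 (SE 0.32) at 1421916_at.

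Pdgfrb, the beta receptor and the one through which Pdgfd acts, was dim. Probe set 1436970_a_at read 105, 146 and 169 in the Runx1-WT mice and 116, 107 and 86.7 in the Runx1-null mice. The groups overlapped because Runx1-WT mouse 1 lay among the Runx1-null mice. The means were 140 ± 32.6 (SD, n = 3) and 103 ± 15.1 (SD, n = 3), a difference of -0.42 (SE 0.24), and at 1417148_at it was -0.19 (SE 0.30).

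Over the 14 probe sets, 7 differences were below 0 and 7 above, and 1 was lower in every Runx1-null mouse and 0 were higher. Of all 34958 probe sets with 1 gene symbol, 1023 (2.93%) were lower and 624 (1.78%) were higher in every Runx1-null mouse. By the brightest probe sets, 3 of the 6 genes (Pdgfd, Pdgfra and Pdgfrb) were below 0 and 3 (Pdgfa, Pdgfb and Pdgfc) above, with a median of -0.16 against -0.02 over all tested genes, of which 55.4% were below 0. For this choice of genes, 10 of the 14 probe sets passed the filter and every gene had at least 1 that did.

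**Figure D3:**
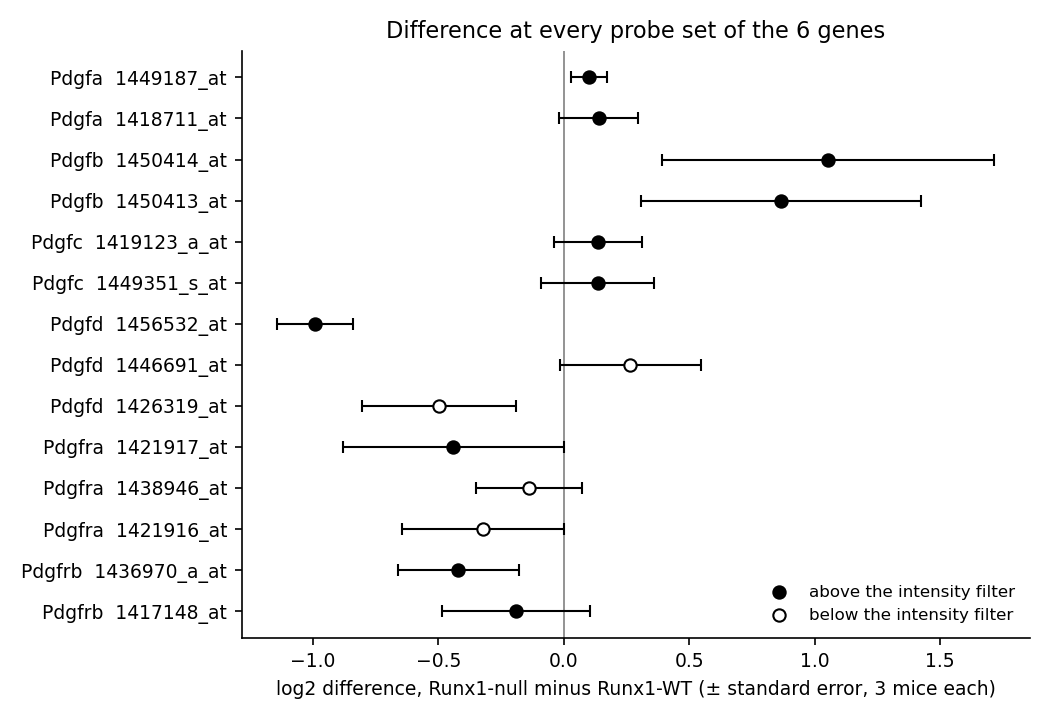
Log2 difference (horizontal axis, Runx1-null minus Runx1-WT) at each of the 14 probe sets, with its standard error over 3 mice a group. Filled points passed the intensity filter and open points did not. Pdgfd at 1456532_at lies at -0.99, Pdgfb has the widest error bars, and the probe sets right of 0 are those of Pdgfa, Pdgfb and Pdgfc and a dim one of Pdgfd.

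Markers of other cell types were read in the same arrays, as sums of intensity over lists of marker genes. The Lin gate of the sort removed cells that stained for CD31 (endothelium), CD45 (leukocytes) or TER119 (red cells), and it holds no marker of fibroblasts or pericytes. Cells were also gated as CD24+CD29lo and YFP+, and the paper's gating labels stromal cells apart from luminal and basal cells. The 7 endothelial markers summed to 1864, 1467 and 1472 in the Runx1-WT mice and 960, 1208 and 1121 in the Runx1-null mice. This sum was lower in every Runx1-null mouse, as was Pdgfd, the gene by which the family was chosen for that split. The sum and Pdgfd ranked the Runx1-WT mice alike, but Runx1-null mouse 1 had the lowest sum and the highest Runx1-null Pdgfd (268). Of the markers, 7 of 7 were below 0, with 1 of them lower in every Runx1-null mouse and none at the floor on all arrays. That 1 was Tek, a receptor of vessel endothelium, at 226 ± 64.7 in the Runx1-WT mice and 134 ± 23.0 (SD, n = 3 each) in the Runx1-null mice, while the junction proteins of endothelium Pecam1 (82.7 to 136 and 82.1 to 132) and Cdh5 (61.4 to 99.5 and 26 to 75.2) were near the filter and overlapped. The part of endothelial RNA in the Pdgfd values was not tested.

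The 9 fibroblast markers summed to 15401, 14912 and 12605 in the Runx1-WT mice and 11707, 13722 and 5099 in the Runx1-null mice. The sum was highest in Runx1-WT mouse 1 and lowest in Runx1-null mouse 3, as Pdgfra was. Between these the orders differed, and Runx1-WT mouse 2 (sum 14912) had a lower Pdgfra, 500, than Runx1-null mice 1 and 2 (535 and 696). Of the markers, 9 of 9 were below 0, with 1 (Fap) lower in every Runx1-null mouse and a median of -0.62. The 7 markers of pericytes and vascular smooth muscle summed to 8080, 6579 and 7477 in the Runx1-WT mice and 6449, 6656 and 6180 in the Runx1-null mice. Pdgfrb did not follow this order, as Runx1-WT mouse 1, with the highest sum, had the lowest Pdgfrb of the Runx1-WT mice (105). Of these markers, 5 were below 0 and 3 (Rgs5, Abcc9 and Des) were lower in every Runx1-null mouse, against 2.93% of all probe sets with 1 gene symbol. Des was below the filter on dim probe sets, with 2 arrays below the floor. Notch3 and Mcam, the brightest of the list, differed by -0.04 (SE 0.10) and 0.05 (SE 0.25). Rgs5, a regulator of G protein signals in pericytes, read 1532, 1005 and 1480 in the Runx1-WT mice and 940, 658 and 213 in the Runx1-null mice. Cspg4, another pericyte marker, was below the floor on 4 arrays. The part of either cell type in the receptor values was not tested.

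The 9 basal and myoepithelial markers summed to 6882, 5007 and 11789 in the Runx1-WT mice and 12107, 13368 and 4964 in the Runx1-null mice. The sum was highest in the Runx1-null mice 1 and 2 and Runx1-WT mouse 3, the mice that also had the 3 highest values of Pdgfb. Of the list, Acta2, Myh11, Mylk and Cnn1 were the 4 markers below 0, and Krt5, Krt14, Trp63, Oxtr and Tagln the 5 above. Oxtr alone read 4268 in Runx1-null mouse 1, against 423 in Runx1-null mouse 3. Krt14, a basal keratin, ran from 1125 to 2348 in the Runx1-WT mice and from 787 to 2845 in the Runx1-null mice. The part of basal RNA in the Pdgfb values was not tested.

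The 7 leukocyte markers measured summed to 858, 801 and 3005 in Runx1-WT mice 1, 2 and 3 and to 796, 693 and 1222 in Runx1-null mice 1, 2 and 3. Runx1-WT mouse 3 stood above the other 5 mice, as it did for Pdgfc, and its Cd3e, a part of the T cell receptor complex, was at 294 against 22 to 46.5 in the others. Of the list, 6 of 7 were below 0, with a median of -0.47, none was lower in every Runx1-null mouse, and none was at the floor on all arrays. The 3 adipocyte markers measured summed to 2952 to 3417 in the Runx1-WT mice and 1951 to 3334 in the Runx1-null mice, which overlap. The part of leukocyte RNA in the Pdgfc values was not tested, and without Runx1-WT mouse 3 the Pdgfc difference was 0.31.

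The pairs of a PDGF gene and a marker list described here were put side by side after their values were seen.

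**Figure D4:**
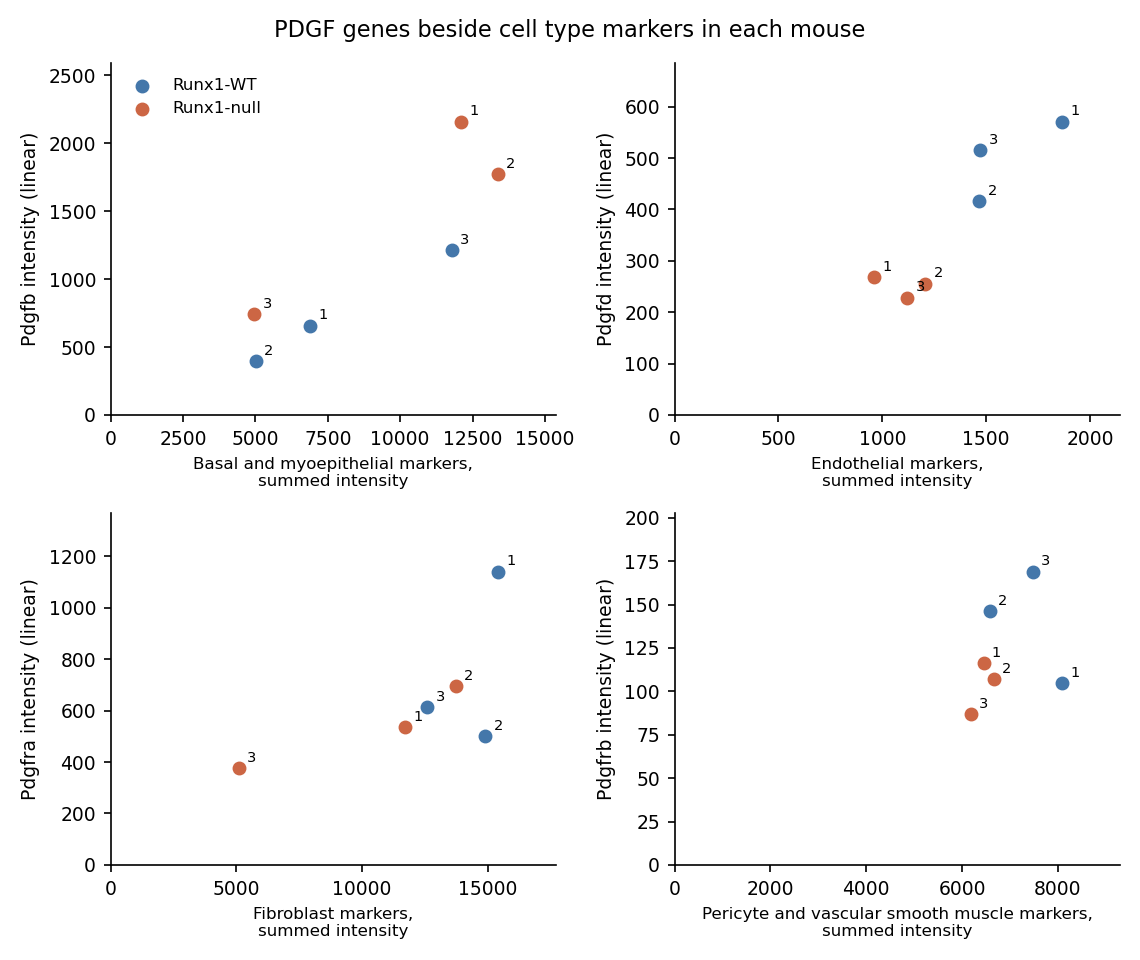
Linear intensity of a PDGF gene (vertical axes) against the summed intensity of a marker list (horizontal axes) in 3 Runx1-WT and 3 Runx1-null mice, 1 point a mouse, numbered within its genotype. Pdgfb is highest in the 3 mice with basal sums of 11789 or more. Pdgfd and the endothelial sum are both lower in every Runx1-null mouse. Pdgfra and the fibroblast sum are both lowest in Runx1-null mouse 3, but Runx1-WT mouse 2 has a Pdgfra of 500 at a fibroblast sum of 14912. In the Pdgfrb panel, Runx1-WT mouse 1 has the highest sum of pericyte and vascular smooth muscle markers (8080) but the lowest Runx1-WT Pdgfrb (105).

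Genes were ranked by how alike their profile was to that of Pdgfd over the 6 arrays, by Pearson's r of log2 values, as a description of arrays that share the genotype difference. The most alike of 12151 genes were Dhtkd1, a mitochondrial enzyme of lysine breakdown (r = 0.996), Bcl6b, a transcriptional repressor (0.989), Nrxn2, a cell adhesion molecule of synapses (0.984), Nmb, the peptide neuromedin B (0.975), and Olfm1, a secreted glycoprotein (0.972). All 5 were lower in every Runx1-null mouse. Olfm1 read 458, 361 and 400 in the Runx1-WT mice and 216, 154 and 131 in the Runx1-null mice, a log2 difference of -1.31 (SE 0.23). Among the PDGF genes, Pdgfra had an r of 0.64 with Pdgfd and ranked 863, and Pdgfrb 0.60 and ranked 1152. Those of the ligands were below 0, at -0.30 for Pdgfc, -0.43 for Pdgfb and -0.56 for Pdgfa. With each genotype's mean removed, the order changed, over the same 6 arrays. Pdgfra was at 0.84 and ranked 486, Pdgfb at 0.71 and ranked 1625, and Pdgfc at 0.17 and ranked 6613. Pdgfa was at -0.06 and ranked 7895, and Pdgfrb at -0.16 and ranked 8501. The 5 genes most alike were then Tbl2 (0.998), Klhl13 (0.997), 6330549D23Rik (0.990), Rwdd4a (0.987) and Tubgcp4 (0.986), so that none of the first 5 recurred.

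A list of 75 other genes of the pathway covered activating proteases, binding proteins and co-receptors, signal transducers, early response genes and relatives of the family. The annotation named 69 and 66 were tested. Limma called 0 of the 66 at an adjusted p under 0.05, as it did over all genes. At an unadjusted p under 0.05, 2 were higher and 3 lower in the Runx1-null mice, against 234 of the 12152 genes in either direction. The median was -0.03 against -0.02 over all tested genes, with 27 above 0 and 39 below. That split turned with the scaling, to 39 above and 27 below under median scaling and to 33 and 33 under quantile normalization, and it was 37 above and 29 below without Runx1-null mouse 3. Of the 66, 5 genes (Sparc, Pdgfrl, Grb2, Vegfb and Kdr) were lower and 4 (St14, Ptpn11, Stat5b and Ier3) higher in every Runx1-null mouse, where the shares over all tested genes were 3.47% and 2.08%.

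All 6 tested proteases had differences above 0 with all mice in, with a median of 0.21. St14 encodes matriptase, which can release active Pdgfd, and read 2938, 2910 and 3298 in the Runx1-WT mice and 3725, 3537 and 4335 in the Runx1-null mice. Every Runx1-null mouse lay above every Runx1-WT mouse, by 0.34 on the log2 scale (SE 0.11), and St14 was 1 of the 2 genes higher at an unadjusted p under 0.05. Plau, the urokinase that also cleaves Pdgfd, differed by 0.27 (SE 0.85) and Plat, the tissue plasminogen activator that cleaves Pdgfc, by 0.14 (SE 0.40), both with overlapping groups. Furin, which trims the A and B chains, had means of 7278 ± 374 (SD, n = 3) and 7480 ± 579 (SD, n = 3), a difference of 0.04 (SE 0.08). Pcsk6, a related convertase named after its values were seen, had the highest difference of the proteases, 0.92, with an SE of 0.86. The protease median was 0.05 without Runx1-null mouse 1, with 4 above 0 and 2 below, 0.12 without Runx1-WT mouse 1, with 5 above and 1 below, and 0.32 without Runx1-null mouse 3, again with 5 above and 1 below. In the upper range of animal numbers, with 1 mouse a genotype, 4 of the 6 proteases were below 0.

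All 4 binding proteins and co-receptors were below 0, with a median of -0.86, and under quantile normalization and median scaling all 4 stayed below 0. Pdgfrl, a secreted receptor-like protein, read 393, 385 and 405 in the Runx1-WT mice and 232, 329 and 245 in the Runx1-null mice. Every Runx1-null mouse was lower, with a log2 difference of -0.57 (SE 0.16). Sparc, a matrix protein that binds PDGF chains, read 4592, 3995 and 5248 in the Runx1-WT mice and 3656, 3899 and 2557 in the Runx1-null mice. It too was lower in every Runx1-null mouse, with a difference of -0.47 (SE 0.22), and Runx1-null mouse 3, with the lowest fibroblast sum, had its lowest value.

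Lrp1, a large endocytic receptor that works with receptor beta, had means of 201 ± 91.0 (SD, n = 3) and 88.0 ± 33.5 (SD, n = 3), a difference of -1.15 (SE 0.55), with overlapping groups. Pdgfrl, Sparc and Lrp1 were the 3 genes lower at an unadjusted p under 0.05, and none passed adjustment. Nrp1, a co-receptor for several growth factors, read 1714, 2497 and 610 in the Runx1-WT mice and 522, 618 and 716 in the Runx1-null mice. Runx1-WT mouse 3 lay among the Runx1-null mice, and the difference of -1.17 (SE 0.62) was 0.23 in the upper range of animal numbers. Fibroblasts and vessels also express these 4 genes, and the markers of fibroblasts, pericytes and endothelium had medians below 0 too, at -0.62, -0.31 and -0.53. Their part was not tested.

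Signal transducers lay close to 0. Of 33 tested, 11 were above and 22 below, with a median of -0.03, but 20 were above and 13 below under median scaling, 16 above and 17 below under quantile normalization, and 20 above and 13 below without Runx1-null mouse 3. Ptpn11, the phosphatase Shp2 that docks on PDGF receptors, was higher in every Runx1-null mouse, with means of 4167 ± 174 (SD, n = 3) and 4461 ± 59.5 (SD, n = 3), a difference of 0.10 (SE 0.04). Plcg1, a phospholipase that binds the receptors, differed by -0.02 (SE 0.27), Src, a kinase, by -0.06 (SE 0.25), and Pik3r1, the regulatory subunit of PI3 kinase, by -0.35 (SE 0.44).

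Of 14 early response genes, whose transcription growth factors are known to raise, 7 were above 0 and 7 below with all mice in, and 11 above and 3 below without Runx1-null mouse 1. Ier3, an early response gene linked to cell survival and named after its values were seen, had means of 6310 ± 655 (SD, n = 3) and 7896 ± 393 (SD, n = 3), was higher in every Runx1-null mouse by 0.33 (SE 0.09), and was the other gene higher at an unadjusted p under 0.05. Egr1 and Fos, transcription factors induced within minutes of PDGF, differed by 0.06 (SE 0.09) and -0.03 (SE 0.23), and Ccl2, a chemokine, by -0.22 (SE 0.50).

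Of 9 relatives tested, 3 were above 0 and 6 below, with a median of -0.28. Leaving out Runx1-null mouse 1, 2 or 3 gave a median of -0.03, -0.09 or -0.55. It was -0.11 when Runx1-WT mouse 2 was left out, and 0.13 in the upper range of animal numbers. Vegfa, a growth factor of vessels in the same ligand superfamily, had means of 1541 ± 135 (SD, n = 3) and 1490 ± 810 (SD, n = 3), a difference of -0.18 (SE 0.44). Kit, a receptor tyrosine kinase of the same class as the PDGF receptors, differed by 0.31 (SE 0.34). Kdr, the main VEGF receptor of endothelium and named after its values were seen, read 353, 213 and 170 in the Runx1-WT mice and 129, 152 and 150 in the Runx1-null mice. It was lower in every Runx1-null mouse, as were 3.47% of all tested genes, with a difference of -0.70 (SE 0.32). Flt1, another VEGF receptor, also named after its values were seen, overlapped between the genotypes, with a difference of -0.52 (SE 0.31).

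**Figure D5:**
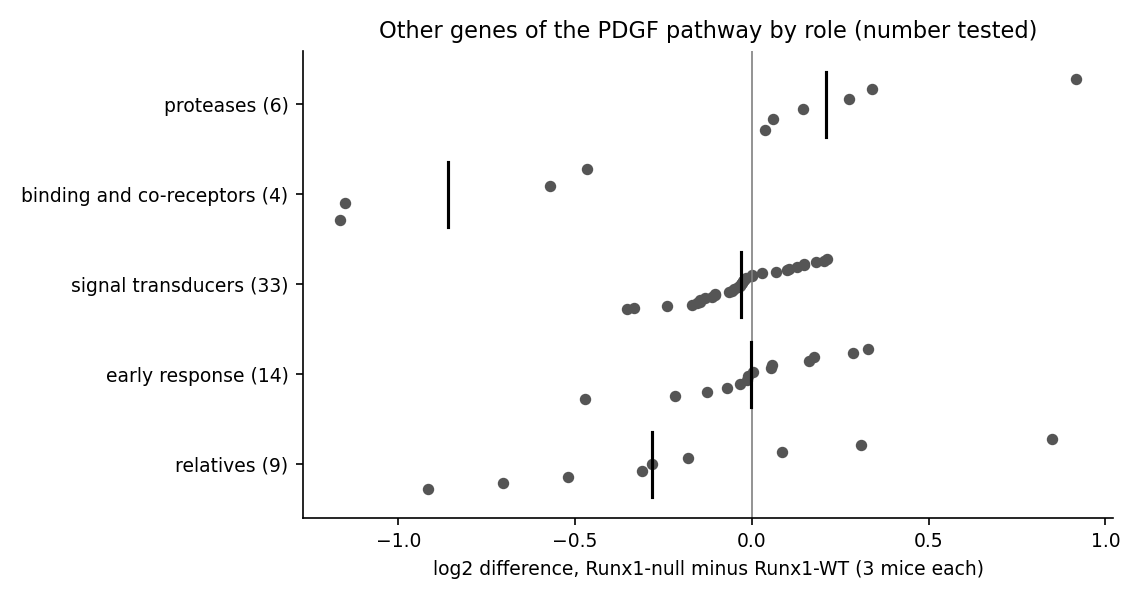
Log2 difference (horizontal axis, Runx1-null minus Runx1-WT, 3 mice each) of the 66 tested pathway genes by role, with 1 point a gene, spread vertically for legibility, and a black bar at the median of each role. The 6 proteases lie right of 0, the 4 binding proteins and co-receptors left of it at -0.47 or below, and the 33 signal transducers around it.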

How the data were processed

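YFP+ luminal MECs of 3 Runx1-null and 3 Runx1-WT females were profiled on Affymetrix Mouse Genome 430 2.0 arrays. The authors extracted RNA with RNeasy columns, amplified it with the NuGEN Ovation V2 system, which can compress differences, and deposited linear intensities normalized with dChip, whose version and model are not given in the sources used here. With no counts behind an intensity, precision rests on the number of arrays. The methods describe littermates, but the labels do not say which mice came from 1 litter.

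Of 45101 probe sets, 34958 had 1 gene symbol in the platform annotation, 932 had several and 9211 were unnamed here. Before log2, intensities under the 20th percentile of all arrays (19.335) were raised to it. Each of 18194 genes was represented by its brightest probe set. Genes whose mean reached the 40th percentile of probe sets (73.475), 12152 in all, entered limma 3.58.1 in R 4.3.3 (lmFit and eBayes, trend on), with p-values adjusted by Benjamini-Hochberg and a threshold of 0.05. The code was tested on simulated data. Standard errors come from the spread between mice, and log2 differences are Runx1-null minus Runx1-WT. Limma p-values set a difference only against the spread between these mice, which limma adjusts by the spread of genes of like intensity. The standard errors printed are without that adjustment.

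The members and gene lists were chosen with earlier results of these data known. The genes named are the 6 members with all probe sets, a set of pathway genes listed by role whatever they showed, and the 5 genes most like Pdgfd over all arrays and within genotypes. Pathway and marker genes outside these were named after their values were seen. Alternatives were other normalizations, a pseudocount, filters, the mean of a gene's probe sets, every probe set, limma without trend, the test named in the methods, leaving out each mouse, and the range of animal numbers. Those for single pathway genes and for each role were added after seeing the data.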

Additional observations from a re-analysis of the deposited data

How the results depend on the processing

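Pdgfd was below 0 under all 13 alternatives, from -1.12 to -0.89 when 1 mouse was left out. It moved by more than the spread between mice when all its probe sets were averaged (-0.41), where dim probe sets near the floor enter the mean, and in the upper range of animal numbers (-1.18). Pdgfa, Pdgfra and Pdgfrb also kept their sign under all 13. Pdgfb and Pdgfc kept theirs under 12 and turned in the upper range, which holds 1 mouse of each genotype: there Pdgfb was at -0.71, Pdgfc at -0.16 and Pdgfrb at -0.96, while Pdgfb was at 1.93 in the lower range. The cause was not tested. With 1 mouse left out, Pdgfb ranged from 0.67 to 1.52 and Pdgfra from -0.69 to -0.09, the latter without Runx1-WT mouse 1. The number of genes passing adjustment in limma was 0 under every alternative run. Those at an unadjusted p under 0.05 numbered 78 to 818 with 1 mouse left out, and 1866 in the lower range. The median of all tested genes moved from -0.02 to 0.02 under quantile normalization and 0.03 under median scaling. No paired analysis was possible because the labels give no replicate numbers shared between the genotypes. The dim probe sets of Pdgfd and Pdgfra had up to 5 of 6 arrays below the floor, where values have no order.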
